A study of Macaca fascicularis with 86 samples.

Results

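The 10 genes described here are NANOG, SOX2, SALL4, LIN28A, LIN28B, PRDM14, DPPA4, DPPA5, L1TD1 and USP44, a group of genes active in pluripotent cells of the early embryo. They were chosen by name, as 10 of the 17023 genes of the expression table, and each symbol was found in it. They were read in 86 small regions cut by laser from frozen sections of gastrulating embryos of the crab-eating macaque, Macaca fascicularis. In Geo-seq, the method used, each region of 5 to 50 cells is turned into a polyA RNA library and keeps its place in the embryo. Embryo 1 of stage E18 gave 15 regions in 4 sections, embryo 2 of stage E18 gave 35 regions in 6 sections, and the E20 embryo, the only embryo of that stage, gave 36 regions in 7 sections. No genotype, strain or treatment is given for any embryo, and each region is named only by its embryo, section and sector number. The labels do not say at which end of the embryo the sections start or where in a section the sectors start.

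Pluripotent cells are those that can still form every tissue of the body. In the primate embryo they make up the epiblast, which loses this state as its cells pass through the primitive streak to become mesoderm and endoderm, or stay behind to become ectoderm. NANOG, SOX2, SALL4 and PRDM14 are transcription factors that hold the pluripotent state, and SOX2 is also kept in neural ectoderm. LIN28A and LIN28B are RNA-binding proteins that block the maturation of the let-7 microRNAs, L1TD1 is an RNA-binding protein that works with LIN28A, DPPA4 is a chromatin factor, DPPA5 is a small protein with an RNA-binding KH domain, and USP44 is a deubiquitinase of histone H2B and of the mitotic checkpoint.

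Values are TPM (transcript numbers relative to the library), which are scaled by gene length, so levels can be set side by side between genes. Tests used log2(TPM + 1), a scale that understates the change of low genes. The TPM of all genes listed for a region summed to between 495547 and 777987, and the sequencing depth is unknown. Genes at 1 TPM or more numbered 10343 ± 855 a region in E18 embryo 1 (SD, n = 15) and 12415 ± 779 in embryo 2 of that stage (SD, n = 35), against 9045 ± 1195 at E20 (SD, n = 36). HPRT1, a gene that every cell uses, was listed at 0 in 6 of the 86 regions, 4 of them in sections 1 to 5 of the E20 embryo, so a member at 0 is described only as listed at 0. The E20 embryo held unlike sections: the mean level of 13 genes of hypoblast and yolk sac endoderm had a median of 9.46 on the log2 scale over the 28 regions of sections 1 to 5 and of 0.48 over the 8 regions of sections 6 and 7. TBXT, the factor that marks the primitive streak, was listed at 0 in each of those 28 regions. The labels call every region embryo and name no tissue. Primate genomes carry processed copies of NANOG and DPPA5, and how reads shared with such copies were counted is not stated, so the levels of these genes are less certain.

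**Figure D1:**
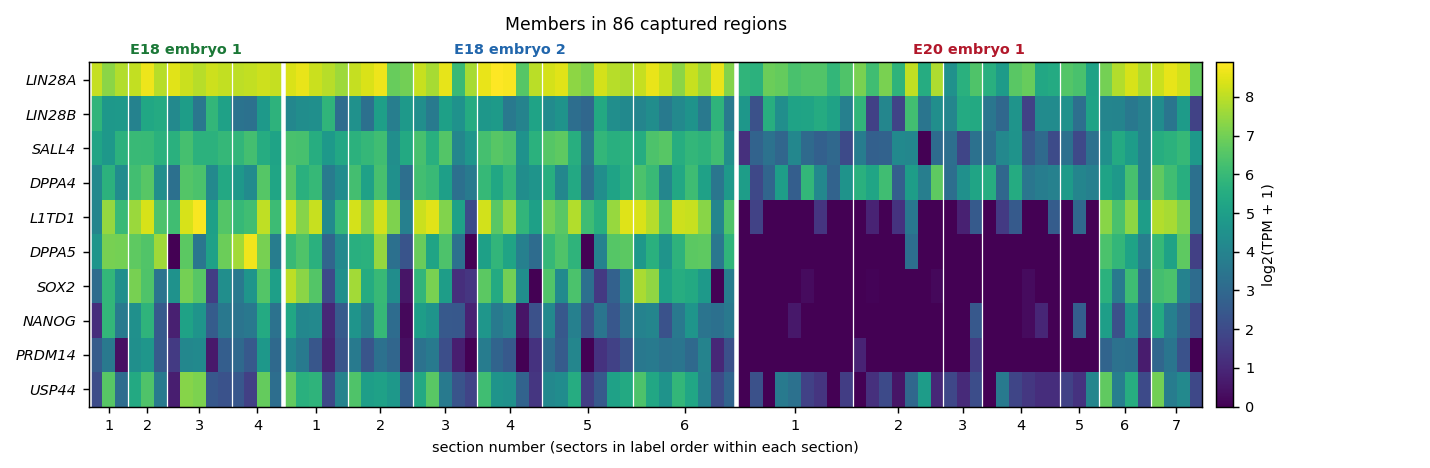
Heat map of the 10 members (rows) in the 86 regions (columns), coloured by log2(TPM + 1); thick white lines divide the embryos, thin lines the sections, and sectors follow label order. L1TD1, DPPA5, SOX2, NANOG and PRDM14 are mostly dark (low) across E20 sections 1 to 5 and brighter in sections 6 and 7, while LIN28A is bright in every embryo.

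LIN28A was the most abundant member. It ranged from 163 to 403 TPM in E18 embryo 1 (median 272), from 64.6 to 475 TPM in E18 embryo 2 (median 277) and, at E20, from 21.4 to 378 TPM (median 89.1). It had the highest TPM of the 10 genes in 72 of the 86 regions, followed by L1TD1 in 12, DPPA5 in 1 and LIN28B in 1. LIN28A was above 0 in every region.

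Below LIN28A, few steps in the order of mean levels were larger than their spread, taking the spread as the SD over regions of the log2 difference between neighbours. In E18 embryo 1 the order was LIN28A, L1TD1, DPPA5, SALL4, DPPA4, SOX2, LIN28B, USP44, NANOG and PRDM14, and only the step from LIN28A to L1TD1 passed (1.36 against an SD of 1.35, n = 15). In E18 embryo 2 the order was LIN28A, L1TD1, SALL4, DPPA4, DPPA5, SOX2, USP44, LIN28B, NANOG and PRDM14, and only the step from NANOG to PRDM14 passed (0.87 against an SD of 0.85, n = 35). PRDM14 was the lowest member in both E18 embryos, with medians of 7.16 and 4.92 TPM. In E20 sections 6 and 7 the steps from LIN28A to L1TD1, from L1TD1 to DPPA4 and from NANOG to PRDM14 passed, and in sections 1 to 5 only that from LIN28A to DPPA4.

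The E18 embryos were also set against each other. Embryo 2 minus embryo 1 was negative for 8 of the 10 genes and ran from -0.98 for DPPA5 to 0.26 for USP44 on the log2 scale, while the median of all genes tested was 0.41. With 1 embryo on each side this difference has no test.

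Whether the pluripotency genes are lower at E20 than at E18 was asked on the embryo means, 1 E20 embryo against 2 E18 embryos. NANOG ran from 0.70 to 58.0 TPM in E18 embryo 1 (median 10.9), from 0.16 to 60.7 TPM in E18 embryo 2 (median 11.1) and from 0 to 42.4 TPM at E20, where 23 of 36 regions were listed at 0. SOX2 ran from 2.03 to 135 TPM (median 24.1), from 0 to 256 TPM (median 32.7) and from 0 to 81.4 TPM, with 24 of the 36 E20 regions listed at 0. The ranges of each gene overlapped between stages. Most E20 regions lay below every E18 region for NANOG, and at the bottom of the E18 range for SOX2. L1TD1 ran from 15.4 to 444 TPM, from 3.12 to 363 TPM and from 0 to 235 TPM, with 17 E20 regions listed at 0. DPPA5 ran from 0 to 413 TPM, from 0 to 177 TPM and from 0 to 103 TPM, with 27 E20 regions listed at 0. These latter genes had the largest stage differences of the 10.

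By limma on the embryo means, 8 of the 10 members were lower at E20 and none was higher, with a median difference of -2.19 on the log2 scale. Over all 15216 genes tested, 8.75% were lower and 2.64% higher, and the median difference was -0.44. The differences (± SE, with limma's adjusted p) were -4.73 ± 0.43 for L1TD1 (3.13e-25), -4.22 ± 0.49 for DPPA5 (2.55e-15), -3.75 ± 0.53 for SOX2 (3.68e-10) and -2.53 ± 0.66 for NANOG (0.0025). SALL4 fell by 2.26 ± 0.44 (limma adjusted p = 1.56e-05), PRDM14 by 2.12 ± 0.76 (0.0477), USP44 by 1.91 ± 0.53 (0.0054) and LIN28A by 1.44 ± 0.48 (0.029). LIN28B at -0.41 ± 0.46 and DPPA4 at -0.60 ± 0.44 did not pass (limma adjusted p = 0.717 and 0.476). The fit had 1 residual degree of freedom, from the pair of E18 embryos, and borrowed its spread from all genes. Its total degrees of freedom were 15216 for each member. The SEs thus rest on how alike that pair was over all genes, and hardly on a gene's own E18 values. DPPA5 differed by -0.98 between the E18 embryos and L1TD1 by 0.11, with SEs of 0.49 and 0.43. The p-values do not measure each gene's own spread between embryos. With the median over regions in place of the mean, limma called 0 of all 15216 genes and so 0 members (adjusted p from 0.374 to 0.455 for those 8).

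The stage difference was not the same in all E20 sections. Against sections 1 to 5 alone the 8 genes were again lower, DPPA5 with -5.32 ± 0.51 and SOX2 with -4.80 ± 0.57. In that comparison limma called 2263 of all 15216 genes lower and 707 higher. Against sections 6 and 7 alone, limma called 0 members, 0 of the 10 had an unadjusted p under 0.05, and 6 genes were called in all: NANOG differed by 0.048 ± 0.55, SOX2 by -0.060 ± 0.45, DPPA5 by -0.36 ± 0.43 and L1TD1 by -0.27 ± 0.44, and the lowest were LIN28B at -0.79 ± 0.48 and SALL4 at -0.58 ± 0.43. The SEs were 0.43 to 0.69 over the 10 members, so the lack of calls does not show that the levels were alike. On simulated data the stage test, with all E20 sections, recovered 0% of differences of 2 log2 units. Those data assumed the same spread between embryos for every gene. The real values gave calls at smaller differences, such as -1.44 for LIN28A, so the simulation does not give the power of this fit. In a region of many cells, fewer cells of a type and less RNA per cell cannot be told apart. Stage, embryo and the tissue that was cut also cannot be told apart here: 10 of the 13 hypoblast and yolk sac genes and 5 of 9 extraembryonic mesenchyme genes were higher at E20, and their part in the members' difference was not tested.

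**Figure D2:**
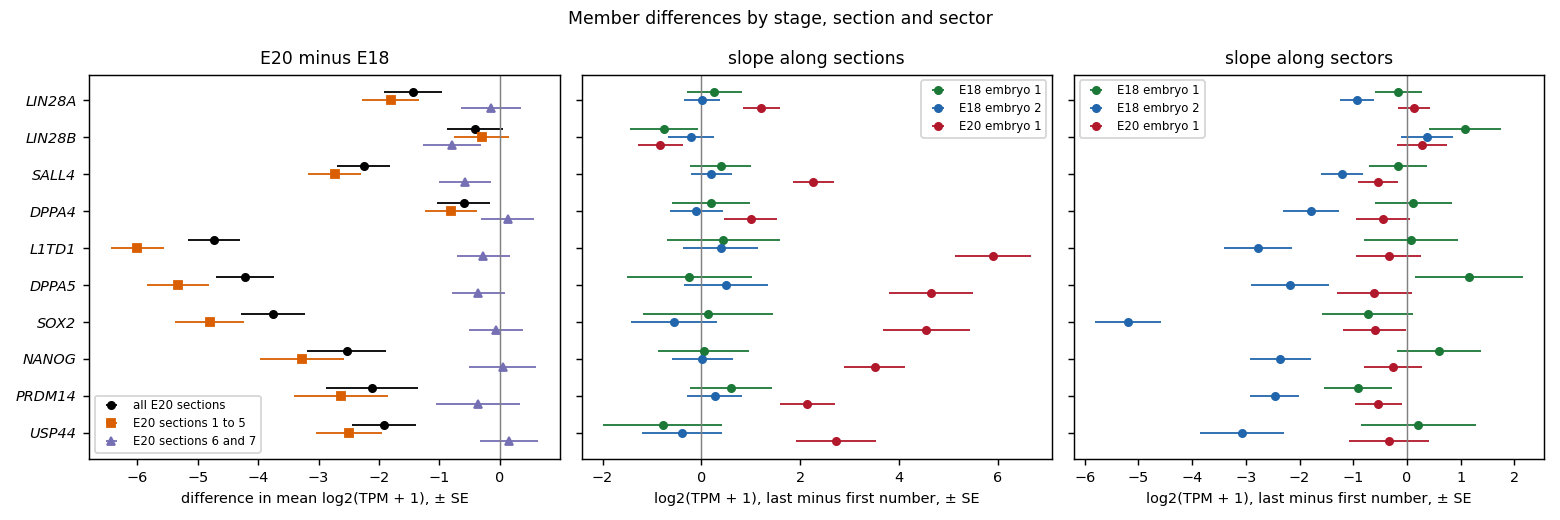
Left, E20 minus E18 difference of each member in mean log2(TPM + 1) with SE, from all E20 sections (black), sections 1 to 5 (orange) and sections 6 and 7 (violet); middle and right, slopes along section and sector numbers in each embryo, as the log2(TPM + 1) difference from first to last number with SE. For DPPA5 the violet point lies at -0.36 and the orange one at -5.32. The lowest violet point is that of LIN28B at -0.79, whose orange point lies at -0.30. The E20 section slopes reach 5.90, and the sector slope of SOX2 is steepest in E18 embryo 2 at -5.19.

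Within the E20 embryo the members fell into those listed at 0 in most regions of sections 1 to 5 and those that were read throughout. SOX2 was 49.8, 11.7, 69.1 and 7.25 TPM in the 4 sectors of section 6 and 74.3, 81.4, 14.2 and 7.85 TPM in those of section 7, against at most 0.21 TPM in the 28 regions of sections 1 to 5. It was the only member whose regions did not overlap between these parts of the embryo, a pattern seen in 0.808% of all genes tested. NANOG was 30.4, 3.64, 24.2 and 4.75 TPM in section 6 and 42.4, 13.2, 6.86 and 2.78 TPM in section 7, and it reached 5.25 TPM in sections 1 to 5, where 2 of 28 regions were at 1 TPM or more. Those 2 regions, section 3 sector 3 (4.48 TPM) and section 5 sector 2 (5.25 TPM), had SOX2 listed at 0. In section 4 sector 4 both genes were just above 0, at 0.21 TPM of NANOG and 0.19 TPM of SOX2.

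DPPA5 was listed at 0 in 27 of the 28 regions of sections 1 to 5, with 8.25 TPM in the last, and ran from 2.23 to 103 TPM in sections 6 and 7. PRDM14 was above 0 in 2 of the 28 (0.84 and 2.00 TPM) and in 7 of the 8, with a median of 6.40 TPM. L1TD1 was at most 10.7 TPM in sections 1 to 5 and ran from 9.28 to 235 TPM in sections 6 and 7. The low end of sections 6 and 7 came from the same place for several genes: sector 4 of section 7 had the lowest L1TD1, DPPA5, NANOG, LIN28A, LIN28B, DPPA4, PRDM14 and USP44 of the 8 regions.

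SALL4 and LIN28A were lower in sections 1 to 5 but were read there, SALL4 above 0 in 27 of 28 regions with a median of 7.41 TPM against 35.9, and LIN28A in all 28 with 79.8 against 261 TPM. LIN28B and DPPA4 were read in every region. Their medians were 20.02 against 14.7 TPM for LIN28B and 18.95 against 40.6 TPM for DPPA4, and their ranges overlapped widely. USP44 lay between, at 1.89 against 15.01 TPM.

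The test of any difference among the 7 E20 sections called 7 of the 10 members, against 18.5% of all genes. They were SOX2 (F = 44.1, limma adjusted p = 4.95e-11), DPPA5 (27.6, 9.17e-09), L1TD1 (20.4, 2.01e-07), NANOG (15.7, 2.19e-06), PRDM14 (11.7, 2.86e-05), LIN28A (6.95, 0.00142) and SALL4 (5.48, 0.00603). USP44 (adjusted p = 0.0659), DPPA4 (0.513) and LIN28B (0.679) did not pass. Within sections 1 to 5 alone limma called 0 of the 10 members and 10 genes in all. Regions of a section came from 1 embryo and are not independent animals, so the p-values of this and the following tests over regions are too small as statements about embryos. Beside these calls, 11 of the 13 hypoblast and yolk sac genes also differed among the E20 sections. Genes at 1 TPM or more numbered 8625 ± 998 in sections 1 to 5 (SD, n = 28) and 10515 ± 344 in sections 6 and 7 (SD, n = 8). With the number of genes read as a covariate 6 of the 7 members were called and SALL4 was not (limma adjusted p = 0.196), beside 1163 genes in all against 2820 without it. The part of the yolk sac genes was not tested.

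Within the E18 embryos the sections did not separate the members. The same test called 0 of 10 members in E18 embryo 2, where it called 0% of all genes, and 0 of 10 in E18 embryo 1, again with 0% of all genes; no member had an unadjusted p under 0.05 by limma in either embryo. On simulated differences of 2 log2 units between sections the test recovered 52.5% in E18 embryo 2 and 7% in E18 embryo 1, so most differences of that size were not detectable in embryo 1. The simulation shifted a single section and took each gene's spread from all embryos together. The SD of SOX2 over regions was 2.32 in E18 embryo 2 and 0.077 in E20 sections 1 to 5. The 52.5% is thus not the power for such members in E18 embryo 2.

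**Figure D3:**
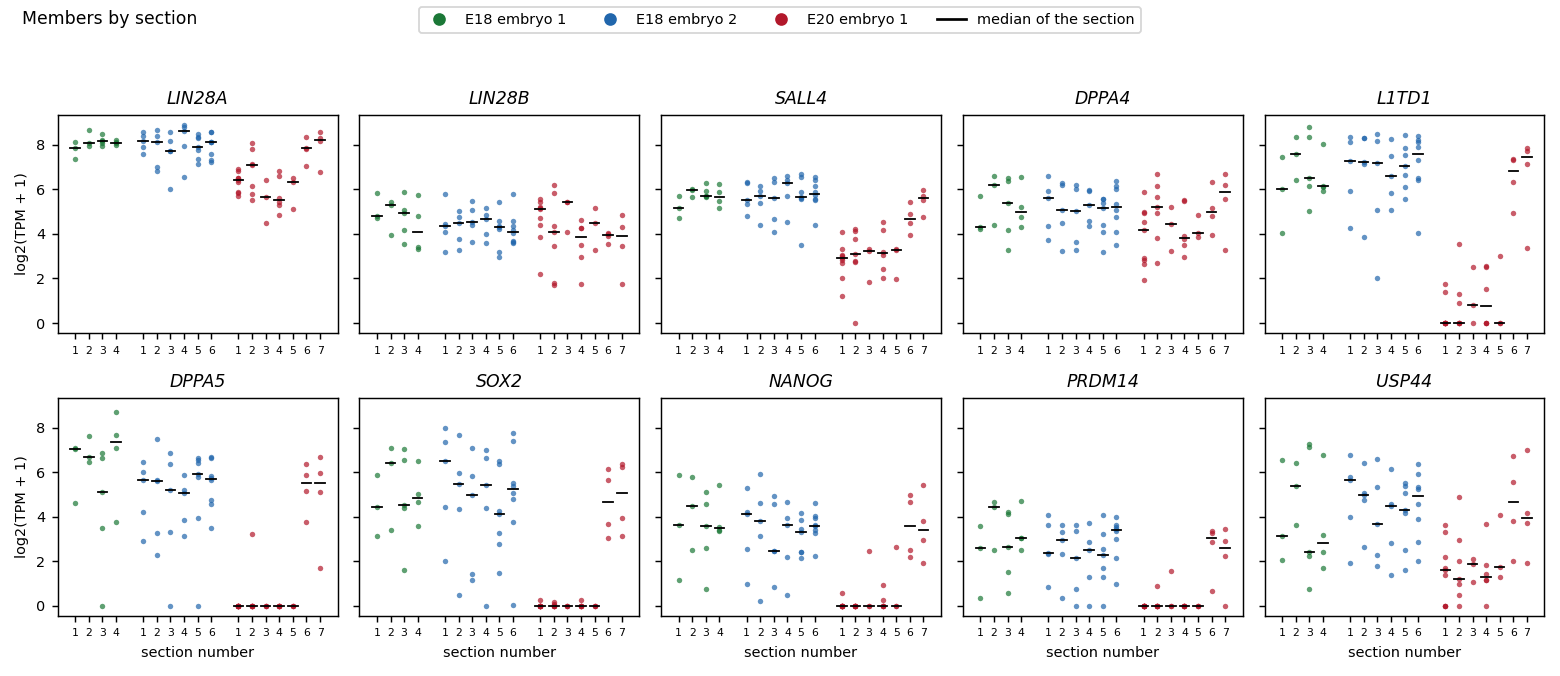
Each member's log2(TPM + 1) by section number, 1 point per region and a bar at the section's median, with the E18 embryos in green and blue and the E20 embryo in red. In E20 sections 1 to 5 SOX2 stays below 1 TPM, the section medians of NANOG, DPPA5 and PRDM14 lie at 0 with single regions of NANOG and DPPA5 up to 5.25 and 8.25 TPM, and 9 of 28 regions of L1TD1 are at 1 TPM or more; the medians of all 5 lie higher in sections 6 and 7, and no such step is seen in either E18 embryo.

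A common trend along section number, with each embryo as a block, was called for 5 members, all rising: L1TD1 (2.65 ± 0.56 from first to last section, limma adjusted p = 0.00129), DPPA5 (2.06 ± 0.58, 0.0136), NANOG (1.44 ± 0.43, 0.0196), PRDM14 (1.09 ± 0.36, 0.037) and SALL4 (1.08 ± 0.28, 0.0078). Of all genes 8.81% rose and 1.89% fell, and the median slope of the members was 1.08 against 0.11 for all genes. SOX2 had a slope of 1.65 ± 0.61 and did not pass (adjusted p = 0.064). The slopes of the single embryos were unlike. NANOG had 0.042 and 0.015 in E18 embryos 1 and 2 but 3.50 ± 0.62 at E20, SOX2 had 0.13, -0.56 and 4.55 ± 0.88, and L1TD1 had 0.44, 0.39 and 5.90 ± 0.76. These slopes differed between embryos for 5 members, NANOG, SOX2, SALL4, DPPA5 and L1TD1 (limma adjusted p from 0.000313 to 0.0238), against 10.1% of all genes. Few genes of any kind were called under the alternatives that ended these calls. Without the E20 embryo 9 of the 15216 genes and 0 members were called, with sections 1 to 5 and 6 to 7 of that embryo as separate blocks 6 genes and 0 members, and with section means 27 genes and 0 members. With the number of genes read as a covariate 502 genes were called, among them 1 member, L1TD1.

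Along sector number 2 members fell, SOX2 by 2.38 ± 0.45 (limma adjusted p = 0.0027) and PRDM14 by 1.35 ± 0.30 (0.0063), and none rose; of all genes 0.762% fell and 2.48% rose. The pattern was plainest in E18 embryo 2. In its section 1, SOX2 was 256, 163, 89.8, 3.02 and 20.95 TPM in sectors 1 to 5, and in its section 2 it was 202, 43.0, 62.4, 19.4 and 0.41 TPM. In section 6, with 8 sectors, SOX2 ran 217, 171, 32.7, 45.2, 40.9, 27.2, 0.032 and 12.6 TPM. Sector 1 was the highest in these 3 sections and in section 5. In section 3 sector 2 was the highest, at 136 TPM against 56.7 in sector 1, and in section 4 it was sector 3, at 126 against 99.4 TPM. PRDM14 in section 1 was 16.2, 11.3, 4.27, 0.79 and 4.10 TPM.

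The slope of SOX2 along sectors was -5.19 in E18 embryo 2, with -0.73 in the other E18 embryo and -0.60 at E20, and these differed (limma adjusted p = 0.00229), as did those of 0.48% of all genes. Without E18 embryo 2 limma called 0 of all 15216 genes, and SOX2 had -0.65 (adjusted p = 0.761). Without E18 embryo 1, 6 members fell, beside 268 genes falling and 861 rising in all. Genes of other tissues moved the opposite way along sectors: 6 of 9 extraembryonic mesenchyme genes, 5 of 9 blood and endothelium genes and 3 of 9 amnion genes rose, and none of these lists had a falling gene. In E18 embryo 2 the mean of the mesenchyme list ran from 1.11 to 8.50 on the log2 scale (median 2.13), from 0.76 to 7.87 in the other E18 embryo and from 0.45 to 8.30 at E20. Its part in the members' trend was not tested.

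SOX2 and NANOG were compared directly. SOX2 was higher than NANOG in 14 of 15 regions of E18 embryo 1, in 31 of 35 of E18 embryo 2 and in each of the 8 regions of E20 sections 6 and 7, with mean log2 differences of 1.23 ± 1.15 (SD, n = 15), 1.40 ± 1.68 (SD, n = 35) and 1.21 ± 0.64 (SD, n = 8). In E20 sections 1 to 5, where both were near 0, SOX2 was higher in 3 regions and NANOG in 5. The levels of the genes moved together over regions, with Pearson's r of 0.74, 0.70 and 0.91 in the 3 embryos, a description over regions that share an embryo.

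The balance between the genes shifted with sector and not detectably with section. SOX2 minus NANOG fell by 1.49 ± 0.36 from first to last sector (two-sided permutation p = 3.0e-05 over 100000 shuffles within sections), with a slope of -1.33 in E18 embryo 1, -2.83 in embryo 2 of that stage and -0.34 at E20. Without E18 embryo 2 it was -0.66 (permutation p = 0.068). Along sections it was 0.21 ± 0.41 (permutation p = 0.611). Regions with NANOG but hardly any SOX2 were found in E18 embryo 2: section 6 sector 7 had 8.66 TPM of NANOG and 0.032 of SOX2, and section 4 sector 5 had 3.602 TPM of NANOG with SOX2 listed at 0. COL3A1, a collagen of mesenchyme, was 198 and 1177 TPM in these regions, and TFAP2C, a factor of amnion and germ cells, 31.9 and 50.5 TPM. NANOS3, a gene of germ cells, was 23.4 and 5.49 TPM in them, the first of these its highest value at E18. Of other genes on the germ cell list, SOX17 was 8.79 and 9.40 TPM and PRDM1 4.73 and 5.18 TPM. Their medians in that embryo were 8.88 and 5.18 TPM. The other genes of that list were not read singly. TFAP2C was also 60.4 TPM in section 2 sector 5, and NANOS3 14.4 TPM in section 5 sector 4, and SOX2 was above NANOG in both. NANOG was also above SOX2 in section 5 sector 5 (10.1 against 1.78 TPM) and section 3 sector 4 (4.47 against 1.27 TPM). The former had 52.7 TPM of TFAP2C and 7.34 of NANOS3. The latter had 9.55 TPM of TFAP2C, with NANOS3 listed at 0. In E18 embryo 1, section 3 sector 4 had 5.03 TPM of NANOG and 2.03 of SOX2. TFAP2C and NANOS3 were listed at 0 there.

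**Figure D4:**
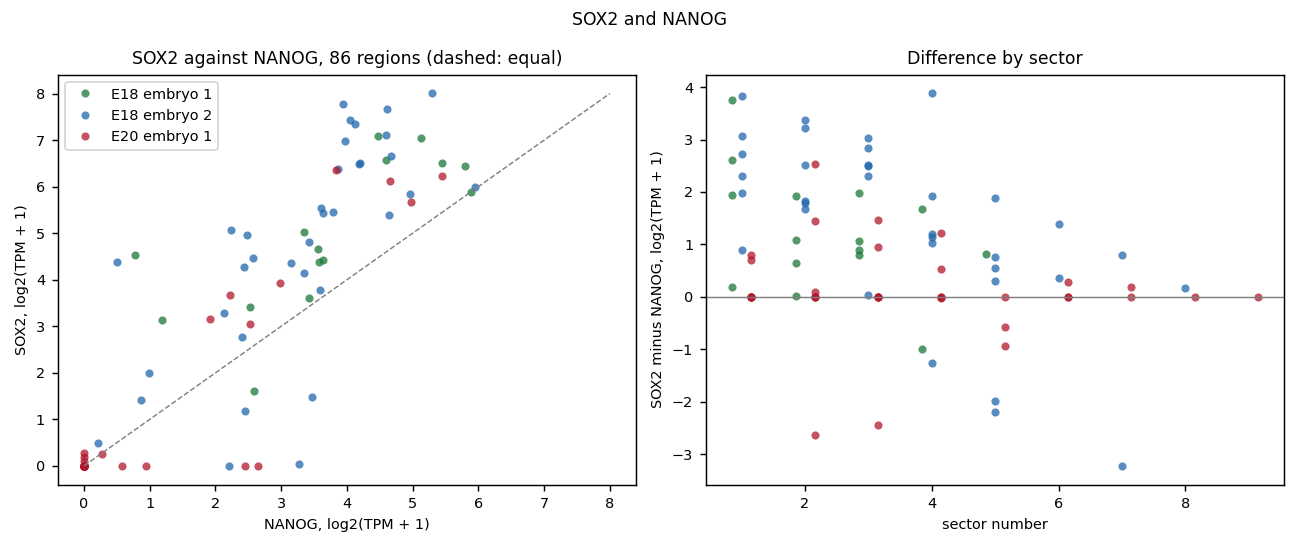
Left, SOX2 against NANOG in 86 regions as log2(TPM + 1), with a dashed line where they are equal; right, their difference by sector number. Most E18 points lie above the line, and the negative differences of E18 embryo 2 lie in sectors 4, 5 and 7.

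The LIN28 paralogues were set against each other. LIN28A was higher than LIN28B in all 50 E18 regions and in 35 of 36 E20 regions. The mean log2 difference was 3.36 ± 0.88 in E18 embryo 1 (SD, n = 15), 3.61 ± 0.82 in E18 embryo 2 (SD, n = 35), 1.97 ± 1.28 in E20 sections 1 to 5 (SD, n = 28) and 4.13 ± 0.78 in sections 6 and 7 (SD, n = 8). Their levels were nearest in sections 1 to 5. The r of LIN28A with LIN28B was 0.14, 0.31 and 0.13 in the 3 embryos, and that of LIN28B with SOX2 was -0.34, -0.46 and -0.15. It did not pass any of the 6 tests by limma.

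Over the 45 pairs of members the median r was 0.154 in E18 embryo 1, 0.604 in embryo 2 of that stage and 0.660 at E20. Within E20 sections 1 to 5 it was 0.101 and within sections 6 and 7 it was 0.605. In sections 1 to 5 many values of the members were listed at 0. SOX2 with L1TD1 had r of 0.88, 0.83 and 0.91 in the 3 embryos. These values describe regions of the same embryo, which share a source and differ in the number of genes read.

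DPPA5 and DPPA4 were also read against the markers of other tissues. DPPA5 was highest in section 4 sector 2 of E18 embryo 1, at 413 TPM. That region had 550 TPM of the streak factor MIXL1 and 3436 TPM of the apolipoprotein APOA1. SOX2 was 24.1 TPM there, its median in that embryo. OTX2 and TDGF1, genes of the epiblast, were 381 and 172 TPM, above their medians of 66.4 and 103 TPM in that embryo. The r of DPPA5 with the list of 12 streak and nascent mesoderm genes was 0.57, 0.57 and 0.81 in the 3 embryos. SALL4 had 0.45, 0.36 and 0.63 with it and SOX2 had -0.49, 0.097 and 0.61. DPPA5 had a higher r with the list of formative and primed pluripotency, the state of the implanted epiblast, at 0.76, 0.85 and 0.96. Within E20 sections 6 and 7 the r of DPPA5 was 0.53 with the streak list and 0.95 with the primed list. In E18 embryo 1 DPPA5 also went with the number of genes read per region (r = 0.80), the part of which was not tested. In E18 embryo 2 the highest DPPA5 and NANOG fell in the same region, section 2 sector 3, with 177 and 60.7 TPM, beside 99.2 TPM of TBXT and 62.4 TPM of SOX2. Streak genes and pluripotency genes were thus read in 1 region at high levels.

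DPPA4 went with extraembryonic mesenchyme within E20 sections 1 to 5. There its r with the mean of that list was 0.77 and with the hypoblast and yolk sac list -0.75, and its highest value there, 103 TPM in section 2 sector 7, stood beside 1456 TPM of COL3A1 and 11.9 TPM of APOA1. NANOG, PRDM14, DPPA5 and L1TD1 were listed at 0 in that region. In the E18 embryos the same r with mesenchyme was -0.58 and -0.76. NANOG, SOX2, L1TD1, USP44, PRDM14 and DPPA5 had a negative r with the mesenchyme list in each of the 3 embryos, from -0.84 to -0.45, and SALL4 had -0.28, -0.66 and -0.44.

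**Figure D5:**
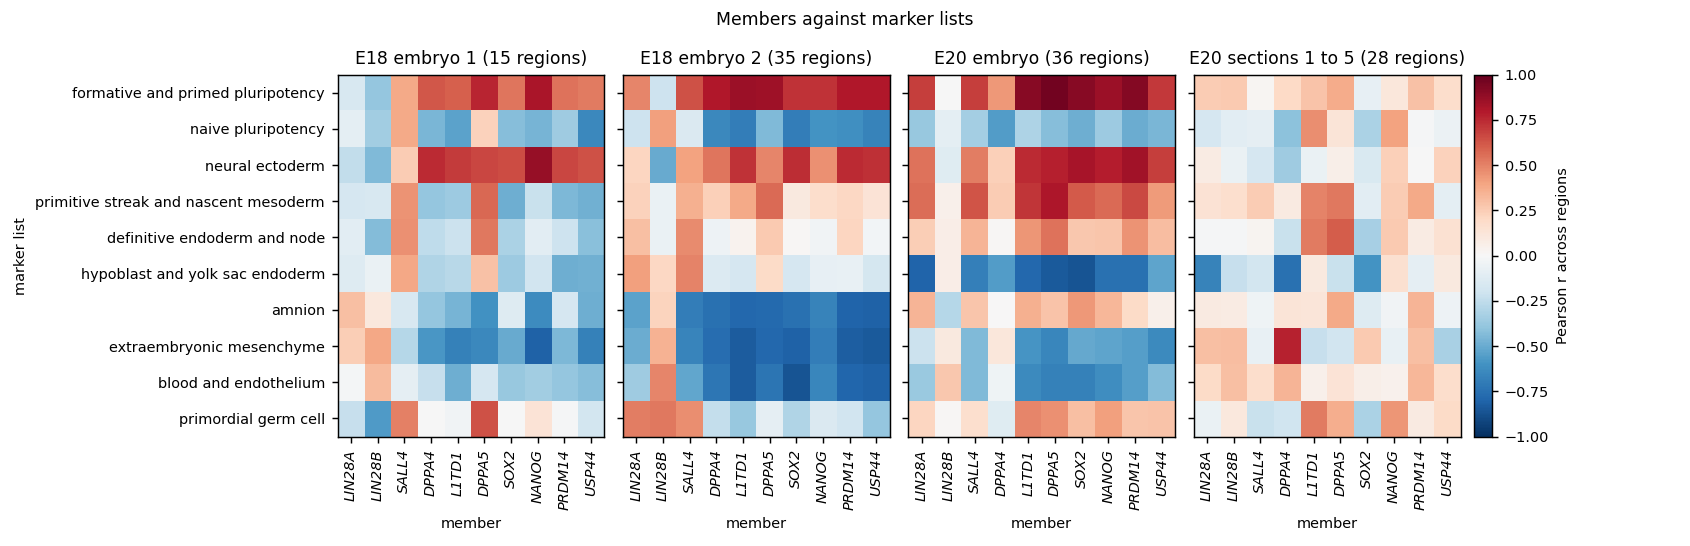
Pearson's r across regions between each member (columns) and the mean log2(TPM + 1) of each marker list (rows), red positive and blue negative, in each embryo and in E20 sections 1 to 5. Most members are blue with extraembryonic mesenchyme in all 3 embryos, and in E20 sections 1 to 5 DPPA4 alone is deep red with it (0.77).

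Other genes of the pluripotent state were read from lists. Of 23 genes of formative and primed pluripotency tested, the state of the implanted epiblast, 14 were lower at E20 and none higher, with a median of -2.15 beside -0.44 over all genes. They included OTX2 (-4.10 ± 0.48), a factor of primed and anterior epiblast, FOXH1 (-4.07 ± 0.44), a partner of SMADs in NODAL signalling, ZIC2 (-3.85 ± 0.51) and ZSCAN10 (-3.78 ± 0.53). Along sections 14 of the 23 rose, and along sectors 5 fell: OTX2 (-2.29), SFRP2 (-2.28), ZIC2 (-1.89), TDGF1 (-1.70) and ETV4 (-1.32). Of all genes tested, 8.75% were lower at E20, 8.81% rose along sections and 0.762% fell along sectors. Among the E20 sections 17 of the 23 differed, beside 18.5% of all genes. OTX2 had a median of 62.8 TPM in E20 sections 6 and 7 and was listed at 0 in 20 of the 28 regions of sections 1 to 5.

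Of the 11 tested genes of naive pluripotency, the state of the blastocyst, few were called. The mean of this list was low, with medians of 1.14, 1.61 and 1.47 on the log2 scale in the 3 embryos. A fall like that of the members could thus hardly be seen. The median stage difference of the list was -0.24, and TFAP2C at -1.69 ± 0.71 did not pass (limma adjusted p = 0.109). At E20 only PRDM1 was called higher (2.60) and none was called lower, and along sectors only TBX3 was called, rising (1.79). PRDM1, which also marks endoderm and germ cells, had medians of 104 TPM in E20 sections 1 to 5 and 0.53 TPM in sections 6 and 7. Of 17 genes of the LIN28 and let-7 axis, 4 were lower at E20: ARID3B (-2.56) and IGF2BP1 (-2.50), which are let-7 targets, DGCR8 (-1.87), a partner of DROSHA in microRNA processing, and TRIM71 (-1.29), a let-7 target and RNA-binding ubiquitin ligase. Of all genes tested 8.75% were lower at E20. Along sections 1 of the 17, DGCR8, rose, beside 8.81% of all genes. Among the E20 sections 3 of the 17, ARID3B, DGCR8 and TUT4, differed, beside 18.5% of all genes. These section counts do not stand out from the shares over all genes. The median stage difference of this axis was -1.10.

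Genes that followed the members most closely were ranked by the smallest Pearson's r over the 3 embryos, among 8821 other genes with a mean of 5 TPM or more. Most like the mean of the members were ANOS1 (smallest r 0.89), PTPRZ1 (0.86), ZFHX2 (0.86), SSB (0.86), KIF1A (0.85), SFRP2 (0.85), REEP2 (0.85) and SEPHS1 (0.84). For NANOG the nearest gene was PTPRZ1 (0.81), for SOX2 VAT1L (0.81), for PRDM14 ERBB2 (0.82), for L1TD1 PTPRZ1 (0.85) and for DPPA5 VRTN (0.79). SALL4 had RNF44 (0.72), DPPA4 had CTBP2 (0.70), LIN28A had ABCF1 (0.60) and LIN28B had GPM6B (0.46). LIN28B thus had the weakest best match of the members listed.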

How the data were processed

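The deposited values are TPM per gene in 86 regions, from the authors' table; fastp, HISAT2 and StringTie are named, without versions, in the submitters' processing notes, and the genome build is not given in the sources used here. Columns were matched to regions by their names. Genes at 1 TPM or more in at least 10 regions were kept (15216 of 17023, with all 10 members), and log2(TPM + 1) was fitted with limma 3.58.1 in R 4.3.3 (trended variance, Benjamini-Hochberg adjustment, threshold 0.05). Stage was tested on 3 embryo means. Section and sector numbers were scaled from 0 to 1 in each embryo or section; the section trend had the embryo as a block and the sector trend the section. The slopes per embryo and the differences among sections were tested by moderated F. SOX2 minus NANOG was tested by 100000 permutations, two-sided. The scripts were tested on simulated data. Nothing says that regions are independent beyond their embryo, and p-values then measure the spread between regions. Members and gene lists were chosen with earlier results of these data known. The 10 members were all named; of the pathway lists, called genes with the largest effects; of similar genes, the nearest by smallest r, not all of which are reported here. The genes read beside them (such as TBXT, COL3A1 and APOA1) were chosen after values were seen. Alternatives were another pseudocount, filter or scaling, section means, and leaving out an embryo.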

Additional observations from a re-analysis of the deposited data

Results flagged for a closer look

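The slope along section number differed between the 3 embryos for 5 members, with an adjusted p by limma's F test of 0.000313 for L1TD1, 0.00634 for NANOG, 0.00654 for SOX2, 0.0126 for DPPA5 and 0.0238 for SALL4. In each case the E20 slope was the steepest, at 5.90, 3.50, 4.55, 4.65 and 2.26 on the log2 scale in that order, and the E18 slopes lay between -0.56 and 0.49. The slope of SOX2 along sector number also differed between embryos (adjusted p = 0.00229), at -5.19 in E18 embryo 2 against -0.73 in the other E18 embryo and -0.60 at E20.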

How the results depend on the processing

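The stage count of 8 members became 0 with the median over regions (0 genes called in all) and 0 with E20 sections 6 and 7 only (6 genes), where NANOG (0.048), DPPA4 (0.13) and USP44 (0.15) changed sign; it was 6 to 8 under the other alternatives run, 6 of them without mitochondrially encoded genes. The section count of 5 became 1 with the number of genes read as a covariate (502 genes in all), 0 with section means (27 genes) and 0 (6 genes) when separate blocks were given to sections 1 to 5 and to sections 6 and 7 of E20, an alternative chosen after seeing the data, in which SOX2 (-0.27), LIN28A (-0.14) and USP44 (-0.30) changed sign. Leaving out each embryo in turn it ran from 0 to 6, and the slopes ran from -0.35 to 3.18 for SOX2, from -0.014 to 0.74 for DPPA4 and from -0.51 to 1.64 for USP44. The sector count of 2 ran from 0 to 6 leaving out each embryo, with slopes from -1.34 to 0.017 for NANOG and from -0.66 to 0.038 for LIN28A. It was 7 without E20 sections 1 to 5, chosen after seeing the data. In all, 468 genes then fell and 781 rose, against 116 and 377 with every region. The E20 section count of 7 became 0 in sections 1 to 5 only (10 genes in all), also chosen later. SOX2 minus NANOG along sections, not called, was -0.041 with a pseudocount of 0.1, -0.073 with quantile normalization and from -0.37 to 0.75 leaving out each embryo; along sectors it ran from -2.31 to -0.66. The cause of these changes was not tested. Leaving out an E18 embryo left the stage fit no residual degrees of freedom, so it gave values with no test. No paired analysis was possible because the replicate numbers of regions were given in accession order and only name them. With sequencing depth unknown, no limit of detection can be set for a gene listed at 0. Simulated stage differences of 2 log2 units were recovered in 0% and of 4 log2 units in 99.5% of genes. The simulation assumed the same spread between embryos for every gene, and the real values gave calls at differences under 2 log2 units. Quantile normalization moved the median stage difference of all genes from -0.44 to -0.064 and the calls from 402 higher and 1332 lower to 633 and 637; leaving out mitochondrially encoded genes moved it to -0.63, with 153 and 732. Under quantile normalization 912 genes rose and 425 fell along sections (1341 and 287 before), and 393 rose and 269 fell along sectors (377 and 116 before); 7, 4 and 3 members were then called for stage, section and sector.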

Other observations

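Sector 3 of section 2 in the E20 embryo had 76.6 TPM of NANOS3, a gene of germ cells. PRDM1 was 107 TPM there, near its median of 104 TPM in sections 1 to 5. NANOG, PRDM14, SOX17, TFAP2C and SOX2 were listed at 0 there. SALL4 was 5.98 TPM and LIN28A 137 TPM, both within the range of the other regions of sections 1 to 5.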
